A study of Homo sapiens with 10 samples.

Results

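The genes described here are 10 oncofetal and self-renewal regulators, HMGA1, HMGA2, IGF2BP1, IGF2BP2, IGF2BP3, LIN28B, MYC, BMI1, POU5F1 and CD44, out of 58735 genes with a row in the count table. They were taken from the table by name, and no measured value enters that rule, although earlier results of these data were known when the names were chosen. RNA was sequenced from A253 cells, a human line derived from a squamous cell carcinoma of the salivary gland, grown in DMEM with 10% fetal bovine serum. The control cells carried a guide RNA against dTomato, a sequence that human cells lack. Cl1 and Cl10 carried a pair of guides against the introns that flank exon 2 of DUSP1, which encodes a phosphatase of MAP kinases, and both are heterozygous for the deletion of that exon. All cells had received the guide and then Cas9 by lentivirus, with puromycin and blasticidin selection. Each group had 2 libraries, and each clone descends from 1 cell, so that clone and deletion cannot be told apart. The paper says in general that its guide RNA experiments were repeated independently with biological replicates. It does not say whether the sequenced libraries of a group came from separate cultures. The p-values thus measure only the spread between these libraries, which may be technical. By Western blot the paper found no DUSP1 protein in Cl1 and Cl10, and it chose these clones for that reason. The comparison of each clone with the control asks how these regulators stand in cells with reduced DUSP1. The same 2 control libraries serve both comparisons.

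Oncofetal genes are active in the embryo, silent or low in most adult tissue and active again in many tumours. The HMGA proteins bind AT-rich DNA and bend it, the IGF2BP proteins bind mRNAs and hold them stable, and LIN28B binds the precursors of the let-7 microRNAs and blocks their maturation. Mature let-7 in turn represses the mRNAs of HMGA2, IGF2BP1, IGF2BP3, MYC and LIN28B itself. BMI1 is a subunit of Polycomb repressive complex 1, POU5F1 (OCT4) is a transcription factor of pluripotent cells, and CD44, the receptor of hyaluronan, is used as a surface marker of stem-like cells in squamous carcinomas of the head and neck.

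Library totals ran from 47016495 to 70986593 counts. Among the more abundant genes, 14925 to 15278 per group, the libraries of 1 group differed by more than counting noise for 23.6% to 58.5% (chi-square test, unadjusted p under 0.05). All 10 markers of squamous epithelium were above 1 CPM (counts scaled to the library total) in every library, and their summed level was 14700 to 15400 CPM in Cl10, 14730 to 14960 CPM in the control and 17010 to 17340 CPM in Cl1. Fibroblast markers, of which 5 of 6 had counts and LUM had none, summed to 44.91 to 51.03 CPM in the control, 46.45 to 48.41 in Cl1 and 30.31 to 31.96 in Cl10. The 5 leukocyte markers summed to 6.245 to 7.008 CPM in the control, 10.2 to 13.99 in Cl1 and 8.719 to 9.887 in Cl10. Endothelial markers, with counts for 3 of 4 and none for KDR, summed to 2.736 to 4.45 CPM in the control, 5.73 to 7.638 in Cl1 and 3.19 to 4.142 in Cl10, and the 6 salivary acinar markers stayed at or under 0.4302 CPM in each library. These sums describe marker genes in RNA of a cultured line, and cells were not counted. Of these genes, 2 fibroblast, 1 leukocyte and 1 endothelial marker reached 1 CPM in every library. Their part in the results was not tested. In bulk RNA, fewer cells with a transcript and less of it per cell cannot be told apart. DUSP1 had 751 and 637 normalized counts (scaled by TMM factors to the mean library total) in the control, 307 and 348 in Cl1 and 494 and 414 in Cl10. By edgeR's quasi-likelihood test, which is used throughout, DUSP1 changed by -1.07 on the log2 scale in Cl1 (standard error 0.149, adjusted p = 0.000292) and by -0.59 in Cl10 (0.134, adjusted p = 0.0113). Where a value is followed by a number and an adjusted p, that number is its standard error. SOX2, the self-renewal factor that the study follows, had 4657 and 5014 normalized counts in the control, 3352 and 3343 in Cl1 and 1435 and 1439.8 in Cl10. It passed lower in both clones, at -0.51 in Cl1 (0.109, adjusted p = 0.00464) and -1.73 in Cl10 (0.0841, adjusted p = 4.47e-05), where passed means an adjusted p under 0.05.

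Of the 10 genes, LIN28B had too few counts to be tested, and the other 9 were tested. In Cl1, 3 of the 9 passed higher than the control (IGF2BP1, MYC and POU5F1) and 3 passed lower (HMGA1, HMGA2 and IGF2BP2), where passed means an adjusted p under 0.05. Of all 20153 genes tested in Cl1, 12.4% passed higher and 12.8% lower, which made 2489 and 2575 genes. With scaling by library size alone these became 1942 and 3191 genes. In Cl10, 1 of the 9 passed higher (POU5F1) and 4 passed lower (HMGA1, HMGA2, IGF2BP2 and IGF2BP3), beside 20.6% and 21.8% of all 19875 genes. An absolute log2 fold change above 1 as well was reached in Cl1 by POU5F1, with 7.54% of all genes, and in Cl10 by IGF2BP3, with 13.4% of all genes. The median log2 fold change of the 9 was 0.08 in Cl1, where all tested genes had -0.01, and -0.00049 in Cl10, where all tested genes had -0.01. HMGA1, HMGA2 and IGF2BP2 were the members lower in both clones, and POU5F1 was the member higher in both. Both comparisons use the same control libraries, which favours such overlap. The share of all genes that passed the same way in both clones is not given here, so the overlap is a description.

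**Figure D1:**
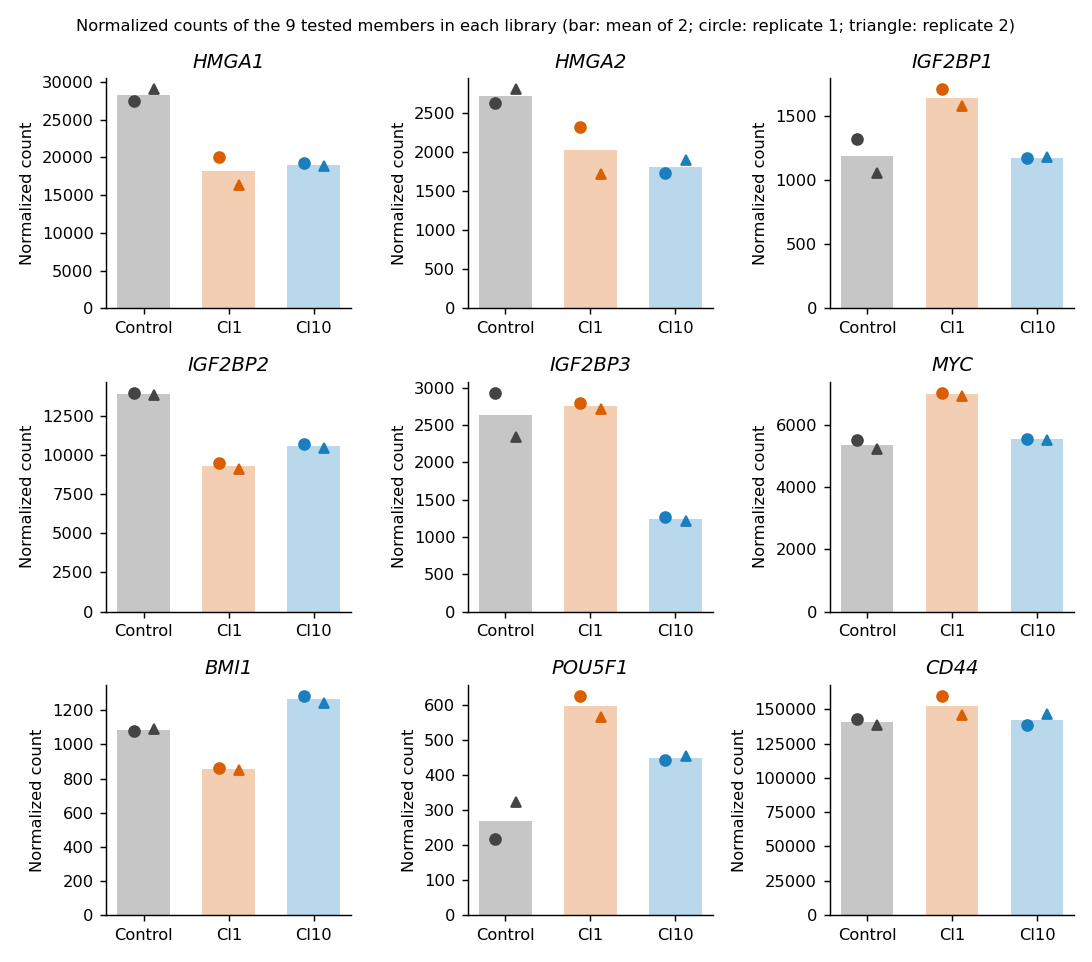
Normalized counts (vertical axes, linear and starting at 0) of the 9 tested genes in the 2 control, 2 Cl1 and 2 Cl10 libraries; bars are the mean of 2 libraries, circles replicate 1 and triangles replicate 2. HMGA1, HMGA2 and IGF2BP2 lie lower in all 4 clone libraries than in both control libraries, POU5F1 lies higher in all 4, and IGF2BP3 is low in the Cl10 libraries alone, at 1273 and 1212.

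Promoter sequence is shown for 3 genes on which the comparisons turn, HMGA1 and IGF2BP2, which fell in both clones, and IGF2BP3, which fell in Cl10. Sequences come from the RefSeq promoter table of GRCh38.p14, which matched 6 of the 10 genes (HMGA1, IGF2BP2, IGF2BP3, LIN28B, BMI1 and CD44) and not HMGA2, IGF2BP1, MYC or POU5F1. The 200 bases that end just before the annotated start are printed 5′ to 3′ on the gene's strand, and capitals mark the motif matches described after them.
HMGA1, chr6:34236673-34236872, plus strand: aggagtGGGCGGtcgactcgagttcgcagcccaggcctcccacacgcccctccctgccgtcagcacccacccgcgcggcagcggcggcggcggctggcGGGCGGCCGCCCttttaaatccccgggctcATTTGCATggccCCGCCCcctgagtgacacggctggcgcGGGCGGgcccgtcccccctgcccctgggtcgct
IGF2BP2, chr3:185825043-185825242, minus strand: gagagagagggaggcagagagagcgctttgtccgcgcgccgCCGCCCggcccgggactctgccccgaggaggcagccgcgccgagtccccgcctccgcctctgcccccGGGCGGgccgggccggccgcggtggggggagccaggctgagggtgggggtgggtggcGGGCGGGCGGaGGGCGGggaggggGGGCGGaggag
IGF2BP3, chr7:23470492-23470691, minus strand: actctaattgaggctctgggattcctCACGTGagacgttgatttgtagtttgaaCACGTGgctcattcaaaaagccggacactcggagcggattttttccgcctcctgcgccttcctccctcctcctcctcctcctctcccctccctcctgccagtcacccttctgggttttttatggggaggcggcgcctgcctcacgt

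In the 250 bases before each start, 7 motifs were searched on both strands, the AP-1 site TGANTCA, the E-box CACGTG, the GC box GGGCGG, the CCAAT box CCAAT, the TATA box TATAAA, the octamer ATGCNAAT and the SOX site CATTGT. Of 35116 promoters of that length, 6.57% held the AP-1 site, 6.34% the E-box, 42.6% the GC box, 32% the CCAAT box, 10.7% the TATA box, 2.69% the octamer and 9.29% the SOX site. The HMGA1 stretch held 5 GC boxes and 1 octamer, the motif that POU5F1 and its relatives bind. IGF2BP2 held 7 GC boxes, 1 of them before the printed stretch and 2 of them overlapping, and none of the other letters searched. IGF2BP3 held 2 E-boxes, the motif that MYC binds with its partner MAX, and no GC box. The GC content of the 250 bases was 74.8% for HMGA1, 81.6% for IGF2BP2 and 56.8% for IGF2BP3. BMI1 held 6 GC boxes and 1 E-box, LIN28B 2 GC boxes and 1 SOX site, and CD44 2 GC boxes. These matches are descriptions of sequence, and binding was not measured. An annotated lncRNA, ENSG00000288879, lies over the HMGA1 stretch on the other strand. The starts used are those of RefSeq. The stretches for LIN28B and CD44 lie inside the GENCODE v44 bounds of those genes, that of LIN28B at 104940765 to 104940964. The read-through gene COMMD3-BMI1 lies over the BMI1 stretch.

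HMGA1 (ENSG00000137309, chromosome 6 of hg38 from 34236873 to 34246231, plus strand), which alters chromatin architecture and is high in stem-like tumour cells, fell in both clones, to 0.650 and 0.681 of its control level in the fit. The control libraries had 27512 and 29038 normalized counts, the Cl1 libraries 20020 and 16361 (rounded), and the Cl10 libraries 19244 and 18806. All 4 clone libraries lay below both control libraries, and the Cl1 and Cl10 libraries overlapped. On the log2 scale it changed by -0.62 in Cl1 (standard error 0.134, adjusted p = 0.00515) and -0.55 in Cl10 (0.0841, adjusted p = 0.00228). Cl10 minus Cl1 came to 0.07 (0.0778, adjusted p = 0.495), and to 0.20 without Cl1 replicate 1, where the Cl10 libraries alone give the spread. The 8 listed HMGA1 pseudogenes, near-identical copies among which the counting could split reads, held 0.285% to 0.347% of the counts of HMGA1 and its copies together. With 1 library left in a clone, the fit takes its spread from the control alone. The call was then lost without Cl1 replicate 2 (-0.49) and without Cl10 replicate 1 (-0.56) or 2 (-0.54).

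HMGA2 (ENSG00000149948, chromosome 12 from 65824460 to 65966291, plus strand), the relative that let-7 represses, was far less abundant and also fell in both clones. Its normalized counts were 2629 and 2800.25 in the control, 2317 and 1720.15 in Cl1, and 1728 and 1893 in Cl10. No clone library reached the control, while the Cl1 libraries stood further apart than those of the other groups and enclosed both Cl10 libraries. Relative to the control the log2 fold change was -0.41 in Cl1 (0.132, adjusted p = 0.0380) and -0.57 in Cl10 (0.0882, adjusted p = 0.00251), with a difference between the clones of -0.16 (0.105, adjusted p = 0.235). Without Cl1 replicate 2 the value in Cl1 was -0.23 and the call was lost, and the difference between the clones was then -0.35. Each of these fits takes its spread from the group that keeps 2 libraries. The median of the 50 nearest tested genes was -0.07 in Cl1 and -0.29 in Cl10, and with it subtracted the value in Cl1 was -0.34 (adjusted p = 0.0785) and that in Cl10 -0.28 (adjusted p = 0.0427). Per length, in TPM over the union of annotated exons, HMGA1 stood 55.96 to 72.14 times above HMGA2, and 18.53 to 23.89 times with the length of the canonical transcript.

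The 3 IGF2BP genes did not move together. IGF2BP2 (ENSG00000073792, chromosome 3 from 185643130 to 185825042, minus strand), the member of the family that is most widely active in adult tissue, had 13980 and 13864 normalized counts in the control, 9473 and 9082 in Cl1, and 10687 and 10437 in Cl10. The 3 groups did not overlap, and both clones lay below the control, Cl1 lowest. Against the control IGF2BP2 changed by -0.57 in Cl1 (0.116, adjusted p = 0.00353) and -0.38 in Cl10 (0.0786, adjusted p = 0.00805). The clones differed by 0.19, higher in Cl10 (0.0573, adjusted p = 0.0152). Against the control the value was -0.58 and -0.55 without Cl1 replicate 1 or 2, and -0.39 and -0.37 without Cl10 replicate 1 or 2. These values kept their size, and the calls were lost with the spread taken from the control alone. Between the clones it was 0.18 and 0.21 without Cl10 replicate 1 or 2, where the call was lost with the spread taken from Cl1. The call between the clones was also lost in 1 fit over the 6 libraries (0.19, adjusted p = 0.0986).

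IGF2BP1 (ENSG00000159217, chromosome 17 from 48997385 to 49056145, plus strand), which shields MYC mRNA among others, had 1319 and 1058 normalized counts in the control, 1708 and 1575 in Cl1, and 1172 and 1178 in Cl10. Both Cl1 libraries were higher than all others, and both Cl10 libraries lay between the 2 control libraries. The log2 fold change was 0.48 in Cl1 (0.126, adjusted p = 0.0147) and -0.00049 in Cl10 (0.117, adjusted p = 0.998), and the clones differed by -0.48 (0.0713, adjusted p = 0.000124). Without Cl1 replicate 1 the rise in Cl1 was 0.44 and the call was lost, with the spread taken from the control alone.

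IGF2BP3 (ENSG00000136231, chromosome 7 from 23310209 to 23470491, minus strand), the member most often used as an oncofetal tumour marker, had 2932 and 2341 normalized counts in the control, 2790.4 and 2719 in Cl1, and 1273 and 1212 in Cl10. The Cl1 libraries lay between the 2 control libraries, and both Cl10 libraries lay below every other library. Against the control the log2 fold change was 0.08 in Cl1 (0.122, adjusted p = 0.682) and -1.07 in Cl10 (0.117, adjusted p = 0.000612), and Cl10 lay below Cl1 by -1.14 (0.0649, adjusted p = 5.43e-08). Dropping control replicate 2 turned the value in Cl1 to -0.07. MALSU1, a protein-coding gene that overlaps IGF2BP3 on the opposite strand, had log2 fold changes of -0.24 in Cl1 (adjusted p = 0.136) and -1.20 in Cl10 (adjusted p = 0.000244). The strand setting of the counting is not given in the sources used here, so reads of the 2 genes may not have been told apart.

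The fall of IGF2BP3 in Cl10 was shared by the genes around it. Of its 50 nearest tested genes, all within 3.73 Mb, 46 had a log2 fold change below 0 and 42 passed lower in Cl10, with a median of -1.09. In Cl1 the median around IGF2BP3 was -0.18, with 12 of 50 passing lower and 8 higher. IGF2BP2 was in a like position in Cl10, where 44 of its 50 nearest genes were below 0, 21 passed lower and the median was -0.39, close to the -0.38 of IGF2BP2 itself. With the median of the neighbours subtracted in the fit, IGF2BP3 in Cl10 was at 0.02 (adjusted p = 0.902) and IGF2BP2 in Cl10 at 0.01 (adjusted p = 0.93). The local medians around HMGA1 were -0.18 in Cl1 and -0.06 in Cl10, and around IGF2BP2 in Cl1 -0.13. The part of such regional shifts in the members' values was not tested beyond this subtraction.

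**Figure D2:**
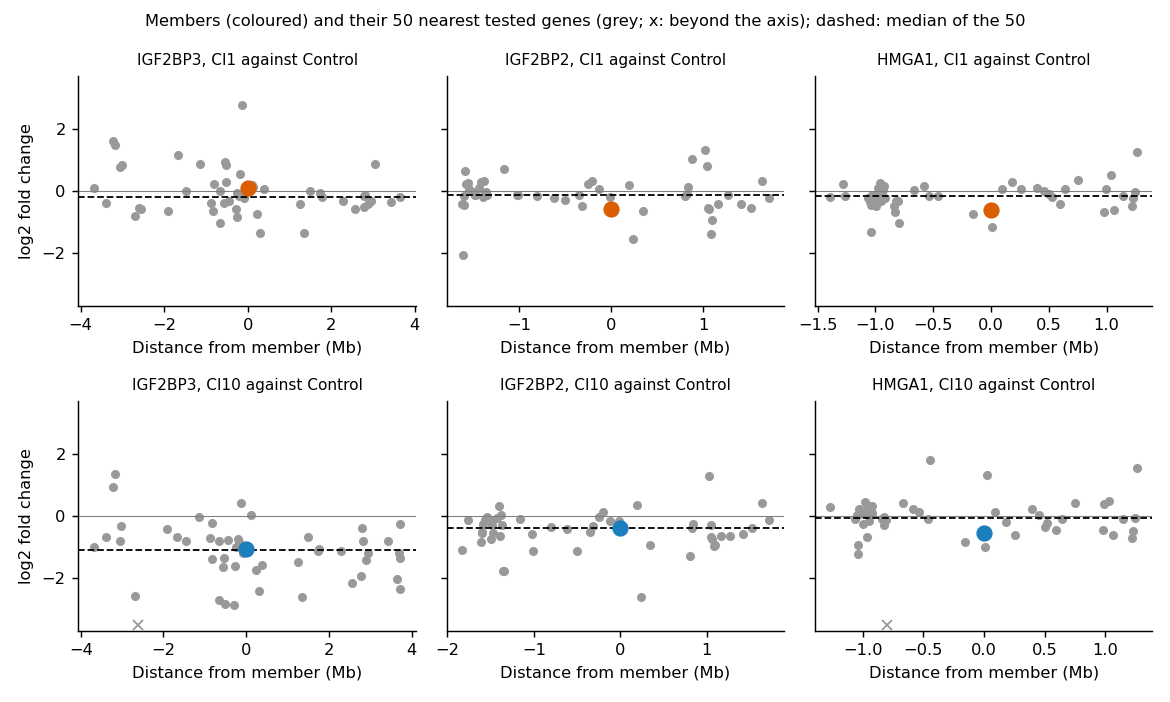
Log2 fold change against the control (vertical axis) of IGF2BP3, IGF2BP2 and HMGA1 (coloured) and of their 50 nearest tested genes (grey) by distance in megabases (horizontal axis); the top row is Cl1, the bottom row Cl10, the dashed line is the median of the 50, and a cross marks a gene beyond the axis. The dashed line is at -1.09 around IGF2BP3 and at -0.39 around IGF2BP2 in Cl10, at the height of those genes, and at -0.06 around HMGA1, above it.

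**Figure D3:**
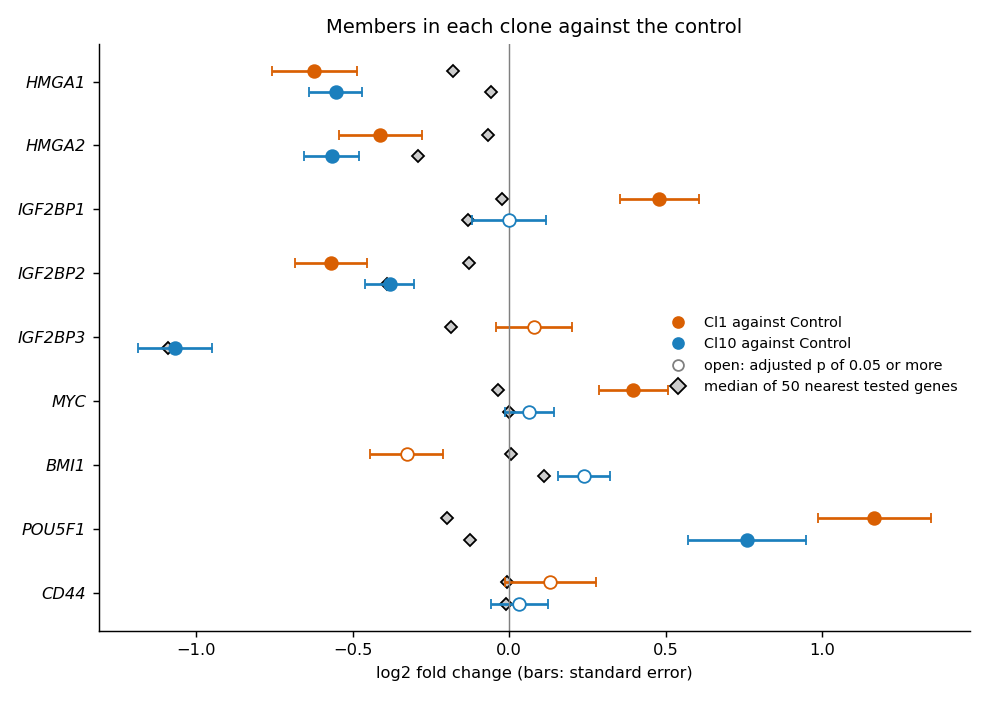
Log2 fold change against the control (horizontal axis, bars are standard errors) of the 9 tested genes in Cl1 (orange) and Cl10 (blue); filled circles passed at an adjusted p under 0.05, open circles did not, and diamonds are medians of the 50 nearest tested genes. POU5F1 is furthest to the right in both clones, at 1.17 and 0.76, and IGF2BP3 in Cl10 is furthest to the left, at -1.07 beside its diamond at -1.09.

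By level per length, IGF2BP2 held most of the IGF2BP family in every library. Its share of the summed TPM of the 3 genes was 84.52% and 87.13% in the control, 77.9% and 77.95% in Cl1, and 88.1% and 88.11% in Cl10. The share was thus lowest in both Cl1 libraries and highest in both Cl10 libraries, and it followed the same order with canonical transcript lengths, at 79.61% and 82.89%, 72.31% and 72.23%, and 85.27% and 85.37%. IGF2BP3 held 11.07% and 9.187% in the control, 14.33% and 14.57% in Cl1, and 6.555% and 6.39% in Cl10, and with canonical lengths 16.73% and 14.03%, 21.34% and 21.67%, and 10.18% and 9.936%. The summed level of the family was 194.7 and 173.1 TPM in the control, 131.4 and 134.9 in Cl1, and 151.6 and 151.4 in Cl10.

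LIN28B (ENSG00000187772, chromosome 6 from 104936616 to 105083332, plus strand), the let-7 inhibitor, had 1 count in all 6 libraries together, in Cl1 replicate 2. A count of 0 allows up to 3 counts, which is 0.0423 to 0.0638 CPM in these libraries, so LIN28B was not detectable above that level in the other 5. This limit covers counting error only. No fold is given.

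MYC (ENSG00000136997, chromosome 8 from 127735434 to 127742951, plus strand), the transcription factor that drives ribosome production and growth, had 5502 and 5209 normalized counts in the control, 7028 and 6924 in Cl1, and 5554 and 5508 in Cl10. Both Cl1 libraries were higher than all others, and both Cl10 libraries lay just above the higher control library. MYC changed by 0.40 in Cl1 (0.110, adjusted p = 0.0198) and 0.06 in Cl10 (0.0785, adjusted p = 0.544), and the clones differed by -0.33 (0.0562, adjusted p = 0.000344). Left with 1 Cl1 library, and so with the spread of the control alone, the call did not hold. The value was 0.40 without replicate 1 and 0.40 without replicate 2.

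BMI1 (ENSG00000168283, chromosome 10 from 22321099 to 22331484, plus strand), which represses the CDKN2A locus in stem cells, had 1079.9 and 1091 normalized counts in the control, 862 and 849 in Cl1, and 1284 and 1246 in Cl10. The 3 groups did not overlap, with Cl1 lowest and Cl10 highest. Against the control neither clone passed, with log2 fold changes of -0.33 in Cl1 (0.117, adjusted p = 0.0571) and 0.24 in Cl10 (0.0830, adjusted p = 0.0546). Between the clones BMI1 was 0.57 higher in Cl10 (0.0771, adjusted p = 6.09e-05), or 1.48-fold. Dropping control replicate 1 gave -0.34 in Cl1 and 0.22 in Cl10, and dropping control replicate 2 gave -0.31 in Cl1 and 0.24 in Cl10. In 1 fit over the 6 libraries both values passed, at -0.33 (adjusted p = 0.0165) and 0.23 (adjusted p = 0.0495), as did that in Cl1 with scaling by library size alone (-0.40, adjusted p = 0.0304) and that in Cl10 with DESeq2's size factors (0.25, adjusted p = 0.0497). The read-through gene COMMD3-BMI1 shares its exons and had 0 counts. How the counting treated reads in shared exons is not given in the sources used here. The 0 thus does not show that the read-through transcript was absent, and BMI1 may have lost reads too.

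POU5F1 (ENSG00000204531, chromosome 6 from 31164337 to 31180731, minus strand) had 218 and 321 normalized counts in the control, 625 and 566 in Cl1, and 443 and 454 in Cl10. All 4 clone libraries lay above both control libraries, and the Cl1 libraries above the Cl10 libraries. The log2 fold change was 1.17 in Cl1 (0.181, adjusted p = 0.000614), or 2.25-fold, and 0.76 in Cl10 (0.188, adjusted p = 0.0163), or 1.69-fold. Between the clones it was -0.41 (0.102, adjusted p = 0.00528), and this call was lost in 1 fit over the 6 libraries (-0.41, adjusted p = 0.0686). With 1 library left out the value ran from 0.90 to 1.48 in Cl1 and from 0.49 to 1.06 in Cl10. In these fits, which take their spread from the group that keeps 2 libraries, POU5F1 passed against the control each time.

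The reads of POU5F1 are uncertain. Its 7 listed copies, of which 5 had counts, held 10.6% to 31.8% of the counts of POU5F1 and its copies together, and the largest of them, POU5F1B, had log2 fold changes of -0.32 in Cl1 (adjusted p = 0.366) and -0.98 in Cl10 (adjusted p = 0.0128). PSORS1C3, a lncRNA gene that overlaps POU5F1 on the same strand, rose with it, by 1.03 in Cl1 (adjusted p = 0.00116) and 0.67 in Cl10 (adjusted p = 0.0266). TCF19, which overlaps it on the opposite strand, had -0.06 in Cl1 (adjusted p = 0.773) and 0.87 in Cl10 (adjusted p = 0.000475). The local medians around POU5F1 were -0.20 in Cl1 and -0.12 in Cl10, opposite in sign to POU5F1 itself. How the counting divided reads among these genes was not tested. Counts per gene also do not separate transcript forms of POU5F1.

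CD44 (ENSG00000026508, chromosome 11 from 35138882 to 35232402, plus strand) was the most abundant of the 10 genes. The control libraries had 142785 and 138892 normalized counts, the Cl1 libraries 159677 and 145528, and the Cl10 libraries 138236 and 146472. Both Cl1 libraries were above both control libraries, and the Cl10 libraries lay on either side of them. The log2 fold change was 0.13 in Cl1 (0.145, adjusted p = 0.554) and 0.03 in Cl10 (0.0906, adjusted p = 0.794), so a difference from the control was not detected against this spread. Between the clones it was -0.10 (0.0697, adjusted p = 0.275), and -0.05 or -0.16 without Cl1 replicate 1 or 2. Counts per gene do not separate the spliced forms of CD44.

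Set against each other per length, the 10 genes covered a wide range in the control. CD44 stood at 851 ± 64.1 TPM (SD, n = 2), between ranks 103 and 142 of all genes over the 6 libraries, and HMGA1 at 733 ± 12.9 TPM. IGF2BP2 followed at 158 ± 9.72 TPM and MYC at 53.0 ± 5.00 TPM. IGF2BP3 (18.7 ± 3.998 TPM), BMI1 (14.9 ± 0.722 TPM), HMGA2 (10.9 ± 0.123 TPM), IGF2BP1 (7.48 ± 1.57 TPM) and POU5F1 (5.62 ± 1.22 TPM) came next, and LIN28B was listed at 0. CD44, HMGA1, IGF2BP2 and MYC held the first 4 places in this order in all 3 groups and with both transcript lengths. Below them the order rests on the length chosen. IGF2BP1 and POU5F1 overlapped in the control, and with canonical transcript lengths HMGA2 (23.2 ± 0.569 TPM) moved up to stand within the spread of IGF2BP3 (21.9 ± 4.96 TPM). In Cl10 BMI1 (19.4 ± 0.107 TPM) stood above IGF2BP3 (9.81 ± 0.184 TPM) with either length, the reverse of the order of these 2 genes in the control.

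**Figure D4:**
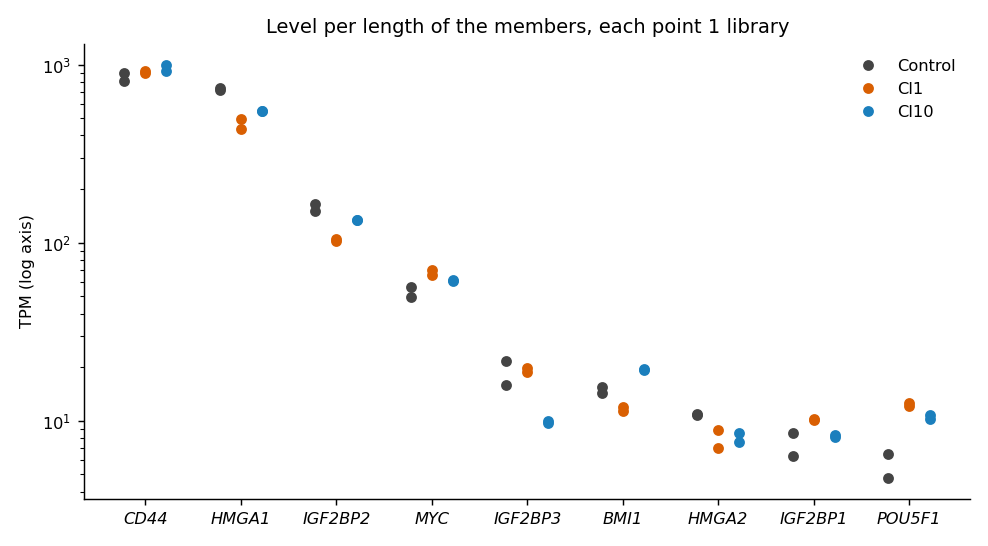
Level per length in TPM (vertical axis, log scale) of the 9 detected genes in each control, Cl1 and Cl10 library, ordered by the control mean; each point is 1 library. CD44 and HMGA1 stand highest, at 851 and 733 TPM in the control, and POU5F1 lowest there at 5.62 TPM, while IGF2BP3 in Cl10 drops to 9.81 TPM, below BMI1.

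Tested directly between the clones, 2 of the 9 genes were higher in Cl10 (BMI1 and IGF2BP2) and 4 lower (IGF2BP1, IGF2BP3, MYC and POU5F1). Of all 19818 genes tested, 24.9% passed higher in Cl10, 24.1% passed lower, and 10.8% passed with an absolute log2 fold change above 1 as well, as IGF2BP3 did. With scaling by library size alone, 5910 genes passed higher and 3939 lower, in place of 4932 and 4774. The median was -0.16 over the 9 genes and -0.0012 over all genes tested. HMGA1, HMGA2 and CD44 did not pass.

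Across the 6 libraries the genes whose log2 CPM followed a member most closely, among 11654 genes with a mean of at least 5 CPM, were HAPLN3 and THG1L for HMGA1 (Pearson r of 0.9966 and 0.9952) and COX10 and XRCC4 for IGF2BP2 (0.9984 and 0.9975). For HMGA2 they were CTU2 and CYTOR (0.9949 and 0.9909), for IGF2BP1 WDR90 and LAMC1 (0.9977 and 0.9976), and for IGF2BP3 AC010168.2 and DCAF16 (0.9995 and 0.9989). MAP3K21 and TKFC followed MYC (0.9982 and 0.9977), MSL3 and PRMT2 followed BMI1 (0.9987 and 0.9984), and TFB2M and NSDHL followed POU5F1 (0.9981 and 0.998). CD44 had the weakest partners, AC012085.1 and DARS (0.9684 and 0.9631). With 6 libraries in 3 groups and the highest of 11654 values taken, such r are a description, and the points of a group share their clone.

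Lists of related genes were counted in the same fits, without the 10 genes themselves. Each count stands beside the shares of all genes tested, 12.4% higher and 12.8% lower in Cl1 and 20.6% higher and 21.8% lower in Cl10. Of 9 tested genes of other high mobility group and HMG-box proteins, which lack the AT-hooks of HMGA1 and HMGA2, none passed higher and 2 lower in Cl1, and 4 higher and 1 lower in Cl10, with medians of -0.17 and 0.0039. HMGN4, a nucleosome-binding protein, passed lower in both clones. Its normalized counts were 3914 and 4123 in the control, 2737 and 2657 in Cl1, and 2290 and 2330 in Cl10 (rounded), with log2 fold changes of -0.56 (0.107, adjusted p = 0.00247) and -0.78 (0.0796, adjusted p = 0.000457). The median of its 50 nearest tested genes was -0.58 in Cl1 and -0.08 in Cl10.

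Of 27 tested genes of the LIN28 and let-7 pathway, 1 passed higher and 3 lower in Cl1, and 5 higher and 4 lower in Cl10. The medians were 0.09 and 0.10, with -0.01 for all genes in each fit. CCND2, a cyclin that let-7 represses, was the gene of this list lower in both clones. The control libraries had 1468 and 1427 normalized counts of CCND2, the Cl1 libraries 243 and 287, and the Cl10 libraries 294 and 309.9. Its log2 fold changes were -2.44 in Cl1 (0.139, adjusted p = 2.28e-07) and -2.24 in Cl10 (0.0980, adjusted p = 3.41e-05).

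In the insulin-like growth factor axis, which gave the IGF2BP family its name, 5 of 13 tested genes passed higher and 1 lower in Cl1, and 4 of 12 higher and 1 lower in Cl10, with medians of 0.33 and 0.44. Of this axis 3 genes passed higher and 1 lower in both clones, and those named here are secreted IGF-binding proteins. IGFBP3 went from 20749 and 20552 normalized counts in the control to 105250 and 89451 in Cl1 and 41129 and 42803 in Cl10, with log2 fold changes of 2.25 (0.145, adjusted p = 6.11e-07) and 1.04 (0.0843, adjusted p = 0.000205). IGFBP7 rose by 1.04 (0.111, adjusted p = 4.13e-05) and 0.97 (0.0801, adjusted p = 0.000221). IGFBP6 fell, from 36758 and 47456 in the control to 24061 and 22494 in Cl1 and 10747 and 10083 in Cl10, at -0.84 (0.149, adjusted p = 0.00150) and -2.00 (0.135, adjusted p = 0.000116).

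The machinery of m6A, the RNA methylation that the IGF2BP proteins can read, held 20 tested genes. In Cl1, 1 passed higher and 1 lower, and in Cl10 4 higher and 2 lower, with medians of 0.04 and 0.09. G3BP1, a stress granule protein, was the gene of this list higher in both clones, at 0.41 (0.121, adjusted p = 0.0261) and 0.32 (0.0834, adjusted p = 0.0207).

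Around MYC, 3 of 19 tested network genes passed higher and 2 lower in Cl1, and 5 higher and 4 lower in Cl10, with medians of -0.04 and 0.11. MXD1, which competes with MYC for MAX, passed higher in both clones (0.44, adjusted p = 0.0180, and 0.62, adjusted p = 0.00256). So did MLXIP, a glucose-responsive relative (0.62, adjusted p = 0.00429, and 0.38, adjusted p = 0.0421), and FBXW7, the ubiquitin ligase subunit that marks MYC for destruction (0.49, adjusted p = 0.00941, and 0.48, adjusted p = 0.00598). Of 30 tested MYC target genes, 2 passed higher and 3 lower in Cl1, where MYC itself was higher, and 7 higher and 6 lower in Cl10, with medians of -0.07 and 0.04. TFRC, the transferrin receptor, rose in both clones, from 14032 and 13415 normalized counts to 27699 and 25658 in Cl1 and 21433 and 22434 in Cl10.

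Polycomb genes, partners and targets of BMI1, numbered 31. None passed higher and 7 lower in Cl1, where 12.4% and 12.8% of all genes did, and 7 higher and 13 lower in Cl10, where 20.6% and 21.8% of all genes did. The medians were -0.12 and -0.10. CBX7, a chromobox subunit of Polycomb repressive complex 1, went from 2746 and 2814 normalized counts in the control to 1859 and 1893 in Cl1 and 1318 and 1232 in Cl10 (log2 fold changes of -0.55, adjusted p = 0.00250, and -1.11, adjusted p = 0.000142). The median of its neighbours in Cl10 was -0.75. PCGF1, a relative of BMI1, had -0.58 (adjusted p = 0.00748) and -0.64 (adjusted p = 0.00747), and YAF2, a subunit of variant complexes, -0.38 (adjusted p = 0.0476) and -0.51 (adjusted p = 0.00617). CDKN2A, the cell cycle inhibitor locus that BMI1 is known to repress, had 8081 and 8851.5 normalized counts in the control, 5945 and 5519 in Cl1, and 7753 and 7359.9 in Cl10. It passed lower in Cl1, where BMI1 counts were lowest, at -0.55 (adjusted p = 0.00439), and was at -0.15 in Cl10 (adjusted p = 0.214).

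Of 24 pluripotency factors, a list that leaves out POU5F1 and SOX2, 11 had enough counts to be tested. In each clone 2 passed higher and 4 lower, with medians of -0.17 in Cl1 and -0.18 in Cl10. ZFP42 (REX1) rose in both clones, from 2235 and 2041 normalized counts to 2755 and 2610 in Cl1 and 2783 and 2666 in Cl10 (rounded), at 0.34 (0.108, adjusted p = 0.0346) and 0.37 (0.0829, adjusted p = 0.0115). Those lower in both clones were FOXD3 (-1.27, adjusted p = 0.000500, and -1.20, adjusted p = 0.00128), SALL4 (-0.96, adjusted p = 0.00177, and -1.34, adjusted p = 0.00133) and ESRRB (-0.75, adjusted p = 0.0146, and -1.11, adjusted p = 0.00313), at mean levels of 2.78, 2.95 and 2.14 CPM. NANOG was not tested and had at most 2.56 normalized counts in any library.

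Surface markers used for stem-like cells, CD44 left out, numbered 22, of which 15 were tested. In Cl1, 6 passed higher and 3 lower, beside 12.4% and 12.8% of all genes, and in Cl10 7 higher and 2 lower, beside 20.6% and 21.8%. The medians were 0.02 and 0.14. CD24, a mucin-like protein often read together with CD44, had 19145 and 20355 normalized counts in the control, 62638 and 63752 in Cl1, and 70225 and 68803 in Cl10. All 4 clone libraries were far above the control, with log2 fold changes of 1.69 (0.134, adjusted p = 3.52e-06) and 1.83 (0.0893, adjusted p = 4.51e-05). NGFR, a neurotrophin receptor found on basal cells, fell, at -0.74 (adjusted p = 0.00145) and -0.76 (adjusted p = 0.000585).

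Among partners of CD44, 17 of 21 genes were tested. In Cl1, 5 passed higher and 1 lower, and in Cl10 4 higher and 5 lower, with medians of 0.06 and -0.23. HAS3, an enzyme that makes hyaluronan, went from 25435 and 20764 normalized counts in the control to 43780 and 42275 in Cl1 and 39511 and 38623 in Cl10 (log2 fold changes of 0.91, adjusted p = 0.000564, and 0.78, adjusted p = 0.00185). HYAL3, of the hyaluronidase family, had 0.55 (adjusted p = 0.0133) and 0.93 (adjusted p = 0.00157), and ADAM10, a protease that cleaves CD44, 0.35 (adjusted p = 0.0426) and 0.41 (adjusted p = 0.0124).

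Other oncofetal genes numbered 18, of which 15 were tested in Cl1 and 14 in Cl10. In Cl1, 5 passed higher and 2 lower, with a median of 0.38, and in Cl10 6 higher and 3 lower, with a median of 0.12. ALPP, the placental alkaline phosphatase, had 5195 and 6346 normalized counts in the control, 12197 and 11826 in Cl1, and 25118 and 28616 in Cl10 (log2 fold changes of 1.07, adjusted p = 9.95e-05, and 2.24, adjusted p = 7.30e-05). ALPG, its near-identical neighbour with which reads may have been shared, had 2.48 (adjusted p = 2.30e-06) and 1.78 (adjusted p = 0.000238). MDK, the growth factor midkine, passed lower in both clones, from 8377 and 9827 in the control to 6750 and 6568 in Cl1 and 2337 and 2223 in Cl10 (log2 fold changes of -0.44, adjusted p = 0.0202, and -1.98, adjusted p = 5.65e-05).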

How the data were processed

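The authors made stranded, poly(A)-selected libraries, aligned the paired reads with HISAT2 (hg38) and used HTSeq to count them by gene. The submitters' processing notes also name StringTie and DESeq. The deposited values are raw counts, and the annotation and strand setting are not given in the sources used here. Libraries with a SOX2 guide, and the second set of dTomato control libraries, were not used here. GENCODE v44 gave coordinates and lengths for 58207 of 58735 identifiers.

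Each clone was compared with the control, and Cl10 with Cl1, with edgeR 4.0.16 in R 4.3.3 (filterByExpr, TMM, estimateDisp, glmQLFit, glmQLFTest), each on its own 4 libraries, with Benjamini-Hochberg adjustment over all genes tested. A standard error is the size of the unshrunk log2 fold change over the root of F. TPM used the union of annotated exons or, added after the data were seen, the canonical transcript. Alternatives were DESeq2 1.42.0, other scalings and filters, 1 fit over the 6 libraries, a replicate block, 1 library left out and a fit offset by the median of the 50 nearest tested genes.

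The members and gene lists were chosen with earlier results of these data known. Besides the 10 genes, DUSP1 and SOX2, the text names from each list up to 3 genes that passed the same way in both clones, at a mean of at least 5 CPM, ranked by the clone with the smaller change, and for each member the 2 genes most correlated with it. A gene that this rule also picks is not reported here. Other genes (CDKN2A, FOXD3, SALL4, ESRRB, NANOG, TERT, and those that overlap or copy a member) were chosen after their values were seen.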

Additional observations from a re-analysis of the deposited data

Results flagged for a closer look

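For 6 of the 9 tested genes, the effects in the clones differed when Cl10 was tested directly against Cl1. This count was 4 in 1 fit over the 6 libraries, where 7578 of 20582 genes passed. IGF2BP3 was lower in Cl10, at a log2 difference of -1.14, as were the genes around it, with a local median of -0.97. IGF2BP1 was lower in Cl10 (-0.48), as were POU5F1 (-0.41) and MYC (-0.33). BMI1 was higher in Cl10 (0.57), with a local median of 0.02. IGF2BP2 was higher in Cl10 (0.19), while its neighbours had a local median of -0.23. Of all genes tested between the clones, 24.9% passed higher and 24.1% lower. Each group had 2 libraries, so no library was tested for standing apart.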

How the results depend on the processing

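Of the 9 genes, 6 passed in Cl1, and 2 to 7 when 1 library was left out (3 without Cl1 replicate 1, 2 without Cl1 replicate 2). In Cl10, 5 passed, and 3 to 6 when 1 was left out (3 without Cl10 replicate 1 or 2). A lone library is assumed to vary like the other group, so these counts also follow the spread of that group. Over all genes, 5064 passed in Cl1 (2718 to 7146) and 8439 in Cl10 (5141 to 11888). With local medians subtracted 3 passed in Cl10, beside 7814 of 19875 genes, and IGF2BP2 (0.01014), IGF2BP3 (0.02082) and IGF2BP1 (0.1303) turned positive there. Between the clones that turned HMGA1 to -0.05508 and HMGA2 to 0.1531.

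IGF2BP1 in Cl10, near 0, also turned with DESeq2 size factors (0.007429), library size only (0.001859), DESeq2 (0.007974) and 1 library left out (-0.1517 to 0.1556). Leaving out 1 library also turned CD44 in Cl10 (-0.01183 to 0.08112), IGF2BP3 in Cl1 (-0.068 to 0.2436) and, between the clones, HMGA1 (-0.06392 to 0.2006) and HMGA2 (-0.3492 to 0.05381).

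Replicate numbers did not pair the libraries (correlation of replicate differences -0.261, -0.257 and -0.00137). With them as a replicate block, 4841 genes passed in Cl1, 8681 in Cl10 and 9894 between the clones, no member's call changed, and IGF2BP1 in Cl10 was 0.007464. A crossed pairing, added after the data were seen, gave 6894 genes and 7 members in Cl1 and 9927 genes and 6 members in Cl10 (IGF2BP1 0.008724). The causes were not tested. LIN28B, with 1 count in 6 libraries, was below what could be tested, and the effect of depth on the other genes was not tested.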
